A study of Mus musculus with 12 samples.

Results

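The 5′ fragments of tRNA-Gly-GCC that are 29 nucleotides (nt) or shorter are described here in mouse sperm, as 440 of the 2971 different sequences that the small RNA table lists. They were chosen from the sequences and from measured levels. The 28 nt sequence with the 2nd highest mean level in the table, a Gly-GCC fragment, was extended to the most abundant sequence of 34 nt or more that begins with it, a 35 nt fragment called the reference here. Every sequence that aligned inside the reference with 2 or fewer edits joined the family (1083 sequences), and the 440 members are those that start at its first base and have 29 nt or less. Levels are in RPM (reads scaled by the authors to a common library total), so each is a share of its library and not an amount per sperm.

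The libraries came from histone replacement-completed sperm (HRCS), mature sperm whose chromatin carries protamines in place of most histones, taken from the caudal epididymis and vas deferens and purified through 82% Percoll. There were 4 groups of 3 libraries. ATF7+/- males, heterozygous for the transcription factor gene Atf7, had eaten a low protein diet (LPD), and further ATF7+/- males a control diet (CD). Wild-type males on LPD and wild-type males on CD made up the other groups, and every diet ran from 3 to 12 weeks of age. The labels do not say how many mice a library holds, or whether libraries of a group came from separate mice, so p-values measure the spread between libraries, which may be technical. The table holds tRNA fragments, so neither the Atf7 transcript nor marker RNAs of sperm and other cells could be checked in it. In bulk RNA, fewer cells with a fragment and less of it per cell cannot be told apart.

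Fragments that begin at the 5′ end of a tRNA and stop in or before the anticodon loop are abundant in mature mouse sperm, where tRNA fragments outnumber many other small RNAs. Much of this load is gained while sperm pass through the epididymis, in part from vesicles that its epithelium releases. The glycine fragments are among the best studied of them, and in mouse embryonic stem cells a 5′ fragment of tRNA-Gly-GCC is known to repress genes linked to the endogenous retrovirus MERVL.

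The sequences that carry most of the reads, and those on which the comparisons turn, are printed here 5′ to 3′. Capitals mark the bases in which a sequence differs from the reference, and positions count from 1 at the 5′ end of the reference. A token such as G6T gives the reference base, the position and the base of the fragment. The reference itself has no capitals.
Reference, 35 nt: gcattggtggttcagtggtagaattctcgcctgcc
Exact, 29 nt: gcattggtggttcagtggtagaattctcg
Exact, 28 nt: gcattggtggttcagtggtagaattctc
Exact, 27 nt: gcattggtggttcagtggtagaattct
G6T, 29 nt: gcattTgtggttcagtggtagaattctcg
G6T, 28 nt: gcattTgtggttcagtggtagaattctc
T5G, 28 nt: gcatGggtggttcagtggtagaattctc
T5G, 27 nt: gcatGggtggttcagtggtagaattct
C28T, 28 nt: gcattggtggttcagtggtagaattctT
T27G, 28 nt: gcattggtggttcagtggtagaattcGc
G6T T27G, 28 nt: gcattTgtggttcagtggtagaattcGc
T5G T27G, 28 nt: gcatGggtggttcagtggtagaattcGc
G6T G18T, 28 nt: gcattTgtggttcagtgTtagaattctc
G29C, 29 nt: gcattggtggttcagtggtagaattctcC

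The anticodon begins at base 33 of the reference, so no member reaches it. RefSeq (GRCm38.p6) annotates 14 mouse Gly-GCC tRNA genes of 71 bases each: 5 on chromosome 1, 3 on chromosome 8, 2 on chromosome 13, and 1 each on chromosomes 2, 3, 4 and 11. One of them is n-TGgcc3 at chr1:74816747-74816817. The sequences of these genes were not used here, so which gene gave a fragment, and whether any gene carries the base of G6T or T5G, was not tested.

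Nearly all members lay within 3 neighbouring lengths, and few sequences of the whole table were shorter than these. There were 226 members of 28 nt, 125 of 29 nt and 85 of 27 nt, with 1 of 26 nt, 2 of 25 nt and 1 of 15 nt. Of the 440, 6 matched the reference exactly, 193 differed by 1 edit and 241 by 2. All 440 passed the filter of a mean of 1 RPM, and 439 were read in each of the 12 libraries. Their mean levels spanned 3.41 to 116532 RPM, with a median of 14.9 RPM, and 153 lay under 10 RPM while 50 reached 100 RPM. On the length limit, the 125 members of 29 nt had mean levels of 3.41 to 20694 RPM (median 10.7 RPM), and the 214 Gly-GCC sequences of 30 nt just outside it had 3.55 to 39942 RPM (median 11.9 RPM).

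The exact fragments did not lose level evenly with length. The 28 nt one averaged 116532 RPM, the 29 nt one 20694 RPM and the 27 nt one 12022 RPM. Below that the level dropped sharply, with 8.25 RPM at 26 nt, 44.8 RPM at 25 nt and 12.9 RPM at 15 nt. The whole table held few sequences this short, with 21 under 27 nt and 2950 of 27 nt or more. The drop can thus not be read as a trait of Gly-GCC fragments alone. Above the limit the exact 30 nt and 31 nt fragments averaged 39942 and 31173 RPM, so the members hold the larger of a pair of length peaks, at 28 nt and at 30 to 31 nt.

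A few sequences made up most of the reads. The exact 28 nt fragment alone held 50.1% of the members' reads (46.3 to 54.6% over the 12 libraries), and the 8 most abundant members held 86.6% (85.3 to 87.9%). The 6 exact fragments held 64.0%. A further 339 members that differ within the fragment, and not at its last base, held 27.4%, and 9 that differ in the last base alone held 6.07%.

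The members fell into versions by bases 5 and 6, where the reference has T and G. The 255 members with both reference bases held 74.7% of the members' reads. The 106 members with G6T held 17.4% (14.5 to 19.0% over the libraries), and the 72 with T5G held 7.86% (5.78 to 11.8%). Another 3 members carried both changes and 4 aligned with a gap.

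The versions differed in length. In the T5G version the 27 nt fragment was present at 0.496 times its 28 nt fragment (0.339 to 0.626 over the 12 libraries). In the reference version that ratio was 0.102 (0.0775 to 0.126), and in the G6T version 0.0883 (0.0673 to 0.116). The T5G ratio was the higher in 12 of 12 libraries, by a mean of 2.27 on the log2 scale (SD 0.36). The G6T ratio was lower than that of the reference version in 12 of 12 libraries, by a mean log2 difference of -0.22 (SD 0.06). The 29 nt to 28 nt ratios lay closer together, with means of 0.210 for T5G, 0.188 for G6T and 0.177 for the reference version. These ratios were looked at after the levels had been seen and carry no test.

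The G6T version also took a larger part of the longer fragments. Set against the exact fragment of the same length, it stood at 20.3% at 27 nt, 23.6% at 28 nt, 25% at 29 nt, 31% at 30 nt and 31.2% at 31 nt, as means over the libraries. T5G stood at 38.5% at 27 nt, and at 8.0, 9.57, 7.43 and 6.41% at 28, 29, 30 and 31 nt.

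Single-base changes were found along the whole 28 nt fragment. Of the 84 single substitutions it can carry, 82 were listed, touching all 28 positions. G6T stood at 23.9% of the exact 28 nt fragment, T5G at 7.85%, C28T at 5.23% and C28A at 2.32%, and the next, A22G, at 0.387%. Away from the last base and without G6T and T5G, the 27 transitions (purine to purine or pyrimidine to pyrimidine) had a median of 0.187% (0.0387 to 0.387%). The 50 transversions had a median of 0.0213% (0.00669 to 0.167%). So most of the 440 members are rare single or double changes of a few abundant fragments, and together the inner changes other than G6T and T5G came to 6.89% of the exact fragment. Errors of library preparation and sequencing, and modified bases in the tRNA, were not told apart from differences between genes.

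The change of the last base from C to T was present in like amounts in each version. The 28 nt fragment ending in T stood at 5.28% of the one ending in C in the reference version (4.11 to 7.43% over the libraries), at 5.39% in G6T (4.18 to 7.74%) and at 5.22% in T5G (4.09 to 7.43%). For the reference version it was 5.50, 6.24 and 6.29% in ATF7+/- LPD sperm, 4.11, 4.35 and 4.55% in ATF7+/- CD sperm, 4.62, 4.80 and 4.80% in wild-type LPD sperm, and 7.43, 5.98 and 4.73% in wild-type CD sperm. ATF7+/- LPD libraries lay above both ATF7+/- CD and wild-type LPD libraries, and ATF7+/- CD libraries lay below wild-type CD libraries. In the G6T and T5G versions the ATF7+/- LPD libraries again lay above both, while the CD groups overlapped. These shares are sums or ratios over members and carry no test.

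Library totals were 2198744 to 6870039 reads, of which the table holds 97.5 to 98.2%, and a sequence with a count of 0 could have had up to 0.437 to 1.36 RPM (3 counts; counting error only). The ATF7+/- LPD libraries had 4828916, 6870039 and 6751209 reads and the wild-type LPD libraries 2278880, 2874170 and 2302584, so in that comparison depth and genotype cannot be told apart. Replicate 3 of each CD group stood apart from its partners in the members' summed level. That sum was 249367, 281250 and 261185 RPM in ATF7+/- LPD sperm, 170663, 190640 and 346069 RPM in ATF7+/- CD sperm, 243663, 250929 and 230379 RPM in wild-type LPD sperm, and 161545, 177266 and 237604 RPM in wild-type CD sperm. The members took 16.6 to 35.3% of a library's listed reads, and the groups overlapped in every comparison of the sum.

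The effect of diet in wild-type sperm was the first comparison. The exact 28 nt fragment had 132918, 131210 and 122583 RPM in LPD sperm, against 83273, 88299 and 119440 RPM in CD sperm. The LPD libraries all lay above the CD libraries, the nearest CD library being replicate 3. The log2 fold change was 0.41 (SE 0.25), which did not pass the test (adjusted p = 0.370, edgeR, adjusted over all 2971 sequences). Its G6T version had 29679, 30579 and 31318 RPM in LPD sperm, against 15902, 18461 and 28664 RPM in CD sperm, with a log2 fold change of 0.54 (SE 0.29) and an adjusted p of 0.312.

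No member was called at an adjusted p under 0.05 between wild-type LPD and CD sperm, where 2.52% of all sequences were (0.168% higher and 2.36% lower). At an unadjusted p under 0.05 there were 22 members (5%), 21 of them higher in LPD, against 648 of all sequences (21.8%), of which 134 were higher and 514 lower. DESeq2 called 2 members and 327 of all sequences. The median log2 fold change was 0.25 over the members and -0.10 over all sequences. The members' median was 0.15 without wild-type CD replicate 1 and 0.46 without replicate 3. The LPD and CD libraries did not overlap for 78 members that were higher in LPD (17.7%, against 8.45% of all sequences) and for 6 that were lower (1.36%, against 11% of all sequences). Of the 78, 66 had 28 nt, 11 had 29 nt and 1 had 27 nt. The versions did not share a direction, since the median was 0.41 over G6T members, 0.26 over reference-version members and -0.17 over T5G members.

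The member with the smallest p in this comparison was G6T G18T. It had 5.27, 8.35 and 6.95 RPM in wild-type LPD sperm, against 2.04, 2.11 and 2.98 RPM in wild-type CD sperm, at a log2 fold change of 1.52 (SE 0.45) and an adjusted p of 0.0701. Next came G6T A22T with 1.17 (SE 0.37, adjusted p = 0.0869) and A14C with 0.81 (SE 0.27, adjusted p = 0.0990). All 3 are rare changes of the abundant 28 nt fragments, and their LPD and CD libraries did not overlap. Without wild-type CD replicate 3, 23 members (5.23%) were called in this comparison, against 19.4% of all sequences.

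In ATF7+/- sperm the values of the diet comparison differed with length, a difference that was not tested. The exact 28 nt fragment had 117111, 130172 and 121636 RPM in LPD sperm, against 84151, 97284 and 170308 RPM in CD sperm. CD replicate 3 was the highest of all 12 libraries and the groups overlapped, with a log2 fold change of 0.07 (SE 0.25, adjusted p = 0.898). The exact 29 nt fragment had 25078, 32344 and 27850 RPM in LPD sperm, against 15897, 16540 and 26792 RPM in CD sperm. The groups overlapped through CD replicate 3, and the log2 fold change of 0.53 (SE 0.26) did not pass the test (adjusted p = 0.309). The G6T version of 29 nt gave 0.52 (SE 0.29, adjusted p = 0.343).

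As a share of the members' reads, the 29 nt fragments separated the ATF7+/- LPD libraries from the rest. They made up 16.6, 19.1 and 17.7% in ATF7+/- LPD sperm, 15.2, 13.9 and 12.9% in ATF7+/- CD sperm, 12.0, 13.2 and 12.5% in wild-type LPD sperm, and 13.3, 12.2 and 14.0% in wild-type CD sperm. The 28 nt fragments made up 72.5, 72.1 and 72.5% in ATF7+/- LPD sperm, 74.9, 76.0 and 75.0% in ATF7+/- CD sperm, 79.4, 77.4 and 79.5% in wild-type LPD sperm, and 77.0, 76.0 and 74.3% in wild-type CD sperm. The ATF7+/- LPD libraries thus had the 3 highest 29 nt shares and the 3 lowest 28 nt shares of the 12. The library that stood apart in level, ATF7+/- CD replicate 3, had the lowest 29 nt share of its group. Why these shares differ between libraries was not tested.

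Within versions, this separation held in part. The ratio of the 29 nt to the 28 nt fragment was 0.230 ± 0.0172 in ATF7+/- LPD sperm, 0.172 ± 0.0159 in ATF7+/- CD sperm, 0.148 ± 0.00940 in wild-type LPD sperm and 0.158 ± 0.0157 in wild-type CD sperm for the reference version (SD, n = 3 each). For G6T it was 0.246 ± 0.0179 in ATF7+/- LPD sperm, 0.184 ± 0.0233 in ATF7+/- CD sperm, 0.156 ± 0.00870 in wild-type LPD sperm and 0.167 ± 0.0130 in wild-type CD sperm. In both versions the ATF7+/- LPD libraries lay above every other library. For T5G it was 0.237 ± 0.0288 in ATF7+/- LPD sperm, 0.191 ± 0.0134 in ATF7+/- CD sperm, 0.190 ± 0.0143 in wild-type LPD sperm and 0.220 ± 0.0150 in wild-type CD sperm. There the ATF7+/- LPD libraries lay above every ATF7+/- CD and wild-type LPD library but overlapped with the wild-type CD libraries.

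No member was called between ATF7+/- LPD and CD sperm, where 0.101% of all sequences were (0.0673% higher and 0.0337% lower). At an unadjusted p under 0.05 there were 60 members (13.6%), 59 of them higher in LPD, against 501 of all sequences (16.9%), of which 226 were higher and 275 lower. DESeq2 called 1 member and 45 of all sequences. The median log2 fold change was 0.30 over the members and 0.03 over all sequences. The members' median was 0.13 without ATF7+/- CD replicate 1, 0.17 without replicate 2 and 0.65 without replicate 3, where the 29 nt median was 0.91. By length it was 0.60 at 29 nt, 0.20 at 28 nt and 0.07 at 27 nt. All 125 members of 29 nt had a positive value, as did 94.4% of the Gly-GCC fragments of 30 to 33 nt and 52.6% of all sequences. Most members are changes of a few abundant fragments, so these signs are not 125 separate observations. The libraries did not overlap for 51 members that were higher in LPD (11.6%, against 13% of all sequences), of which 31 had 29 nt and 20 had 28 nt, and for 1 that was lower (0.227%, against 8.25%). Without ATF7+/- CD replicate 3, 25 members (5.68%) were called, against 2.39% of all sequences.

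The smallest p belonged to G29C, which ends in C in place of G. It had 119, 154 and 131 RPM in ATF7+/- LPD sperm, against 57.7, 53.8 and 91.0 RPM in ATF7+/- CD sperm, with a log2 fold change of 1.00 (SE 0.25, adjusted p = 0.192). Relative to the exact 29 nt fragment it stood at 0.474 ± 0.00272% in LPD sperm and 0.343 ± 0.0190% in CD sperm (SD, n = 3 each), so its difference was larger than that of the fragment it is set against. In wild-type sperm the same ratio was 0.424, 0.344 and 0.349% on LPD and 0.497, 0.443 and 0.362% on CD. Wild-type CD replicate 1 thus lay above every ATF7+/- LPD library. G29C also has the letters of the exact 30 nt fragment with base 29 left out, and its share of that fragment was not computed. The G6T fragment of 29 nt with C28T followed, at 9.30 ± 1.15 RPM in LPD sperm and 3.78 ± 1.49 RPM in CD sperm (log2 fold change 1.36, SE 0.35, adjusted p = 0.192), and then G6A C28T at 28 nt with 0.76 (SE 0.22, adjusted p = 0.211). All 3 members differ from the reference at or next to the last base, and their LPD and CD libraries did not overlap.

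Averaged over both genotypes, 1 member was called higher in LPD, where 1.55% of all sequences were called higher, 10.3% lower and 11.9% in either direction. It was G6T G18T. In ATF7+/- sperm it had 5.18, 7.42 and 4.44 RPM on LPD, against 2.33, 4.53 and 5.0 RPM on CD. With the wild-type values above, the log2 fold change was 1.04 (SE 0.30, adjusted p = 0.0421, edgeR). The ATF7+/- groups overlapped and the wild-type groups did not. Its counts were 5 to 51 reads a library, and it was no longer called after any of 10 libraries was left out in turn.

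The next members by p were C26A C28T, with a log2 fold change of 0.70 (SE 0.22, adjusted p = 0.0501), and G6T T8A, with 0.64 (SE 0.20, adjusted p = 0.0517). The exact 29 nt fragment had 0.41 (SE 0.18, adjusted p = 0.156). At an unadjusted p under 0.05 there were 51 members (11.6%), all higher in LPD, against 803 of all sequences (27%), of which 238 were higher and 565 lower. DESeq2 called 6 members and 530 of all sequences. The median was 0.28 over the members and -0.01 over all sequences. Without ATF7+/- CD replicate 3 the members' median was 0.45, and 139 members (31.6%) were called, against 26.9% of all sequences. Without wild-type CD replicate 3, 45 members (10.2%) were called, against 24% of all sequences.

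Another part of the Gly-GCC family moved with diet. Its fragments that start after base 1 made up 2.63, 1.07 and 1.68% of the family's reads in ATF7+/- LPD sperm, 6.54, 4.85 and 2.59% in ATF7+/- CD sperm, 1.72, 2.22 and 2.29% in wild-type LPD sperm, and 9.58, 3.14 and 2.96% in wild-type CD sperm. The LPD libraries lay below the CD libraries in wild-type sperm and overlapped with them by 1 library in ATF7+/- sperm. In both CD groups replicate 3, the library with the highest sum of members, had the lowest share of these shortened fragments, and the part of this in the diet values was not tested.

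On the low protein diet, ATF7+/- sperm were compared with wild-type sperm. The ATF7+/- libraries were the deeper ones here, as given above. The exact 28 nt fragment, with the LPD values above, had a log2 fold change of -0.07 (SE 0.25, adjusted p = 0.921) between ATF7+/- and wild-type sperm, and the groups overlapped. The exact 29 nt fragment had 25078, 32344 and 27850 RPM in ATF7+/- LPD sperm, against 18527, 20744 and 18045 RPM in wild-type LPD sperm. The ATF7+/- libraries all lay above the wild-type libraries, but the log2 fold change of 0.57 (SE 0.26) did not pass the test (adjusted p = 0.274).

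The T5G fragment of 28 nt had 11483, 11504 and 10994 RPM in ATF7+/- LPD sperm, against 7487, 8488 and 6894 RPM in wild-type LPD sperm, with no overlap and a log2 fold change of 0.57 (SE 0.24, adjusted p = 0.251). The G6T fragment of 29 nt had 0.66 (SE 0.29, adjusted p = 0.267), the exact 27 nt fragment 0.32 (SE 0.33, adjusted p = 0.683) and C28T 0.28 (SE 0.27, adjusted p = 0.647). For these 3 as well, the ATF7+/- LPD libraries all lay above the wild-type LPD libraries. The G6T fragment of 28 nt and the T5G fragment of 27 nt, also among the most abundant members, overlapped. The former had 28564, 32586 and 29961 RPM in ATF7+/- LPD sperm, against 29679, 30579 and 31318 RPM in wild-type LPD sperm. The latter had 5064, 3899 and 4202 RPM in ATF7+/- LPD sperm, against 4192, 4934 and 3375 RPM in wild-type LPD sperm.

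Of the members, 2 were called higher in ATF7+/- LPD than in wild-type LPD sperm, where 0.135% of all sequences were called higher and 0.0673% lower. At an unadjusted p under 0.05 there were 76 members (17.3%), all higher in ATF7+/-, against 506 of all sequences (17%), of which 332 were higher and 174 lower. Counted over both directions, the members' share was thus near the background, which also held sequences that were lower. DESeq2 called 5 members and 74 of all sequences. The median log2 fold change was 0.35 over the members and 0.11 over all sequences. By length it was 0.67 at 29 nt, 0.08 at 28 nt and 0.31 at 27 nt. All 125 members of 29 nt had a positive value, as did 93.2% of the Gly-GCC fragments of 30 to 33 nt and 58.1% of all sequences. Here too the members of 29 nt are not separate observations. By version it was 0.58 over T5G, 0.26 over G6T and 0.32 over reference-version members. The libraries did not overlap for 181 members that were higher in ATF7+/- (41.1%, against 21.3% of all sequences) and for 5 that were lower (1.14%, against 14.2%). Among the Gly-GCC fragments of 30 to 33 nt these shares were 45.5% higher and 0.798% lower, so this was not particular to the members. The 181 included 91 of the 125 members of 29 nt, 34 of the 85 of 27 nt and 56 of the 226 of 28 nt.

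Both called members carry T27G and differ from each other by G6T. T27G had 76.2, 109 and 93.5 RPM in ATF7+/- LPD sperm, against 37.3, 37.9 and 26.1 RPM in wild-type LPD sperm, with a log2 fold change of 1.46 (SE 0.25, adjusted p = 0.0453, edgeR). G6T T27G had 19.9, 24.9 and 26.4 RPM in ATF7+/- LPD sperm, against 7.90, 6.96 and 7.38 RPM in wild-type LPD sperm, with a log2 fold change of 1.68 (SE 0.27, adjusted p = 0.0453). The third member by p was T5G T27G, which had 6.83, 11.4 and 9.04 RPM in ATF7+/- LPD sperm, against 1.76, 3.83 and 1.30 RPM in wild-type LPD sperm. Its log2 fold change of 1.94 (SE 0.43) did not pass the test (adjusted p = 0.0937), and its wild-type LPD counts were 4, 11 and 3 reads. So each of the 3 versions has a T27G fragment, and among the members the 3 had the smallest p in this comparison. Both calls were lost without any 1 of the wild-type LPD libraries, ATF7+/- LPD replicate 2 or 3, or ATF7+/- CD replicate 2, and with the replicate number as a block, while a fit on these 6 LPD libraries alone called 70 members (15.9%) and 12.5% of all sequences.

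Each of these 3 sequences has the letters of the 30 nt fragment of its own version with 2 adjacent bases left out. Relative to that 30 nt fragment, T27G of the reference version stood at 0.191 ± 0.00158% in ATF7+/- LPD sperm, 0.154 ± 0.00300% in ATF7+/- CD sperm, 0.105 ± 0.0216% in wild-type LPD sperm and 0.0853 ± 0.0268% in wild-type CD sperm (SD, n = 3 each). The ATF7+/- libraries lay above the wild-type libraries on both diets, and ATF7+/- LPD lay above ATF7+/- CD. In the G6T version the same share was 0.159 ± 0.0179% in ATF7+/- LPD sperm, 0.117 ± 0.0209% in ATF7+/- CD sperm, 0.0729 ± 0.00548% in wild-type LPD sperm and 0.0687 ± 0.0145% in wild-type CD sperm. The ATF7+/- libraries again lay above the wild-type libraries on both diets. In the T5G version it was 0.292 ± 0.0127% in ATF7+/- LPD sperm, 0.168 ± 0.0144% in ATF7+/- CD sperm, 0.141 ± 0.0730% in wild-type LPD sperm and 0.0962 ± 0.0842% in wild-type CD sperm, and the genotypes did not overlap on LPD but did on CD. Set against the 28 nt fragment of the same version instead, T27G lay higher in every ATF7+/- than in every wild-type library on LPD in all 3 versions, and overlapped between the genotypes on CD in all 3. Among all 82 single substitutions of the 28 nt fragment, T27G varied the most between libraries as a share of that fragment, 3.94 times from 0.0213 to 0.0838%, while the median substitution varied 1.35 times.

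On the control diet, T27G again gave the smallest p between the genotypes. It had 67.2, 56.1 and 58.2 RPM in ATF7+/- CD sperm, against 29.8, 28.3 and 40.1 RPM in wild-type CD sperm. The groups did not overlap, and the log2 fold change was 0.89 (SE 0.24, adjusted p = 0.965). The ATF7+/- CD libraries had 5581994, 5297436 and 2198744 reads and the wild-type CD libraries 3927919, 2365173 and 3017882. The part of depth in this difference was not tested. G6T T27G had 19.5, 11.7 and 13.2 RPM in ATF7+/- CD sperm, against 6.36, 8.03 and 9.28 RPM in wild-type CD sperm, with a log2 fold change of 0.92 (SE 0.27, adjusted p = 0.965). The remaining member named by p, A3T T5G, had 1.25 (SE 0.37, adjusted p = 0.965).

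No member was called between ATF7+/- CD and wild-type CD sperm, and 0% of all sequences were. At an unadjusted p under 0.05 there were 12 members (2.73%), 11 of them higher in ATF7+/-, against 125 of all sequences (4.21%), of which 32 were higher and 93 lower. DESeq2 called 0 members and 0 of all sequences. The median log2 fold change was 0.28 over the members and -0.05 over all sequences, but it was -0.08 over the members without ATF7+/- CD replicate 3. It was 0.46 without ATF7+/- CD replicate 1, 0.15 without wild-type CD replicate 1 and 0.45 without wild-type CD replicate 3. The libraries did not overlap for 8 members that were higher in ATF7+/- (1.82%, against 1.21% of all sequences) and for 3 that were lower (0.682%, against 2.73%). The exact 28 nt fragment had a log2 fold change of 0.27 (SE 0.25, adjusted p = 0.965) and its G6T version 0.48 (SE 0.29, adjusted p = 0.965), and both overlapped between the groups.

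A difference in diet effect between the genotypes was tested as the LPD to CD difference in ATF7+/- sperm minus that in wild-type sperm. No member was called, and 0% of all sequences were. At an unadjusted p under 0.05 there were 18 members (4.09%), 16 with a positive value, against 292 of all sequences (9.83%), of which 240 were positive and 52 negative. DESeq2 called 0 members and 3 of all sequences. The smallest p belonged to G1C T5G, which had 12.4, 17.0 and 12.6 RPM in ATF7+/- LPD sperm, 7.35, 9.25 and 9.55 RPM in ATF7+/- CD sperm, 4.83, 8.70 and 7.38 RPM in wild-type LPD sperm, and 10.9, 14.8 and 9.61 RPM in wild-type CD sperm. LPD was above CD in ATF7+/- sperm and below it in wild-type sperm, each without overlap, and the log2 difference between these effects was 1.43 (SE 0.41, adjusted p = 0.305). T5G G29C followed with 1.77 (SE 0.52, adjusted p = 0.340) and T5G T27C with 1.07 (SE 0.40, adjusted p = 0.468). All 3 are of the T5G version. The median of this difference was 0.35 over T5G members, -0.11 over G6T members, 0.09 over all members and 0.16 over all sequences. Over all members it had no stable sign, with -0.10 without wild-type CD replicate 3, 0.22 without wild-type CD replicate 1, -0.08 without ATF7+/- CD replicate 1, -0.04 without ATF7+/- CD replicate 2, 0.43 without ATF7+/- CD replicate 3 and -0.03 with DESeq2. It was 0.16 without wild-type LPD replicate 2, 0.17 without ATF7+/- LPD replicate 1 and 0.04 without ATF7+/- LPD replicate 2.

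The longer Gly-GCC fragments gave other values in the same fits. The 501 of 30 to 33 nt had a median log2 fold change of -0.28 for diet in wild-type sperm and 0.41 for diet in ATF7+/- sperm, where the members had 0.25 and 0.30. Between the genotypes they had 0.57 on LPD and -0.20 on CD, where the members had 0.35 and 0.28. The members of 29 nt, at 0.67 on LPD, were closer to these longer fragments than the members of 28 nt, at 0.08. The 292 Glu-CTC fragments of 29 nt or less, a family that shares no sequence with the members, had medians of 0.20 and 0.01 for diet in wild-type and ATF7+/- sperm, and of -0.13 and 0.04 for genotype on LPD and CD. These comparisons share libraries, and the differences between the lists were not tested.

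Within the Gly-GCC family, the members' part of the reads was 59.4, 56.4 and 57.1% in ATF7+/- LPD sperm, 48.2, 55.0 and 69.1% in ATF7+/- CD sperm, 60.1, 63.9 and 61.3% in wild-type LPD sperm, and 46.6, 43.7 and 61.7% in wild-type CD sperm. The ATF7+/- LPD libraries lay below the wild-type LPD libraries, and every other pair of groups overlapped. Outside the members, the 3 sequences whose levels over the 12 libraries were most like those of the exact 28 nt fragment were G6T fragments of 34 or 35 nt, with Pearson's r of 0.895, 0.875 and 0.872 on log2(RPM + 1), given as a description of libraries that share their depth.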

How the data were processed

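The authors deposited 1 table with raw read counts per sequence and library, and normalised values in RPM that the authors scaled to 1 total per library. These totals were recovered from the ratio of count to RPM. Reads were placed on mm10 per the submitters' processing notes, and which aligner or counter was used is not given in the sources used here. Every per-library column was read.

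Sequences were aligned to the reference fragment with edlib 1.3.9.post1. Counts of all 2971 sequences were tested with edgeR 4.0.16 (quasi-likelihood test, R 4.3.3), with the recovered totals as library sizes, a minimum mean of 1 RPM, which removed 0 sequences, and Benjamini-Hochberg adjustment over all of them. A sequence was called at an adjusted p under 0.05. The biological coefficient of variation was 0.326. Alternatives were DESeq2 1.42.0, TMM factors, other filters, a replicate block and leaving out each library. Sums, shares and ratios over members carry no test. Floors cover counting error alone, and PCR copies were not told apart by molecular identifiers. SDs and SEs include the spread between libraries.

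Named are the 8 members with the highest mean, the exact fragments, and for each comparison those called plus the next by unadjusted p, up to 3. Lists and members were chosen with earlier results of these data known. Some same-numbered libraries deviated together between ATF7+/- CD and wild-type CD sperm (r = 0.547, 0.143 and 0.522 for replicates 1, 2 and 3). Differently numbered pairs with a replicate 2 had r of 0.195, 0.227, -0.278 and -0.200, and those of replicates 1 and 3 had -0.582 and -0.473. Deviations were taken from the mean of each group's 3 libraries, so these r values are not independent. A shared number is thus a hint from the data, since no label says what it marks, and was not seen in the other comparisons. No libraries of the same group agreed within sampling noise, and pairs across groups were not checked for this. RefSeq gene positions are those of GRCm38.p6.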

Additional observations from a re-analysis of the deposited data

Results flagged for a closer look

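All sums, shares and ratios computed here were searched for comparisons with opposite directions. In 6 of these measures, a comparison separated its groups in a given direction and its counterpart separated them in the opposite direction. None of these differences was tested, and each measure is a sum or ratio with 3 libraries a group. The 28 nt share of the members' reads was lower in LPD than in CD in ATF7+/- sperm (a difference of -2.95 percentage points) and higher in LPD in wild-type sperm (2.93), so the effects differed by -5.89 points. The share of the exact 28 nt fragment went the same way, with -3.24 points in ATF7+/- sperm, 2.81 points in wild-type sperm and -6.05 points between them. The share of the 8 most abundant members had -1.43 points in ATF7+/- sperm, 1.54 points in wild-type sperm and -2.96 points between them. All of these shares include the exact 28 nt fragment, so they are not separate results.

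Members that differ in the last base alone went the other way, with a diet effect of 1.39 points in ATF7+/- sperm and -1.23 points in wild-type sperm, 2.62 points apart. The 29 nt to 28 nt ratio of the T5G version had a diet effect of 0.0461 in ATF7+/- sperm and -0.0304 in wild-type sperm, 0.0765 apart. For the 28 nt fragment ending in T over that ending in C in the reference version, the genotype effect was 1.27 points on LPD and -1.71 points on CD, 2.98 points apart. In the G6T and T5G versions the CD groups overlapped in this ratio.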

How the results depend on the processing

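The count of called members depended on the setting. DESeq2 called 2 members for diet in wild-type sperm, 1 for diet in ATF7+/- sperm, 6 for diet over both genotypes and 5 for genotype on LPD, where edgeR called 0, 0, 1 and 2. These DESeq2 counts were 0.455, 0.227, 1.36 and 1.14% of the members, against 11, 1.51, 17.8 and 2.49% of all sequences. With a minimum mean of 10 RPM, or with members of at most 1 edit, the diet count over both genotypes was 0, and with at most 1 edit the genotype count on LPD was 1. A fit on the ATF7+/- LPD and wild-type LPD libraries alone called 70 (15.9%), against 12.5% of all sequences. Leaving out 1 library at a time gave 0 to 23 called members for diet in wild-type sperm, 0 to 25 for diet in ATF7+/- sperm, 0 to 139 for diet over both genotypes and 0 to 4 for genotype on LPD. The highest were reached without wild-type CD replicate 3 for diet in wild-type sperm and genotype on LPD, and without ATF7+/- CD replicate 3 for the others. In the order listed, they were 5.23, 5.68, 31.6 and 0.909% of the members, against 19.4, 2.39, 26.9 and 1.01% of all sequences. The 2 T27G calls were lost without any 1 of the wild-type LPD libraries, ATF7+/- LPD replicate 2 or 3, or ATF7+/- CD replicate 2. Genotype on CD and the interaction stayed at 0 in every setting run. The causes were not tested.

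With the replicate number as a block, 1 member was called for diet in wild-type sperm, 3 for diet over both genotypes and 0 for genotype on LPD. Of all 2971 sequences, the same fit called 80 for diet in wild-type sperm and 356 for diet over both genotypes. For genotype on CD, where some same-numbered libraries deviated together, the block called 0. A fit on the CD libraries alone with the block, added after seeing the data, also called 0. The block changed no other count.

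Of 603 alternative values for 34 fold changes of named members, 547 kept direction and side of the threshold, 26 passed it, 25 no longer did, and 5 changed sign. Those were of the exact 28 nt fragment: for diet in ATF7+/- sperm -0.000517 with TMM, -0.0214 with DESeq2 and -0.12 to 0.44 leaving out a library, and for genotype on CD -0.10 to 0.46 leaving out a library. With DESeq2's size factors, the median of all sequences for genotype on LPD was 0.01 in place of 0.11 and that of the members 0.26 in place of 0.35, a shift larger than the 28 nt median of 0.08. Members under 10 RPM rest on few reads a library, which limits their values.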
